A study of Mus musculus with 168 samples.

Results

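The libraries described here were made from the cortex of wild-type mice at 6 and at 10 months of age, and were chosen by their titles: the 8 wild-type libraries of 10 months were compared with the 8 of 6 months, 16 of the 168 libraries in the series. The series profiled polyA RNA of the cortex in mice carrying an expanded CAG repeat in the Huntington's disease gene Htt, with wild-type (WT) mice beside them, at 2, 6 and 10 months. All mice were labelled C57BL/6, each age held 4 female and 4 male WT libraries, and the WT mice of both ages shared cages with heterozygous Q20 mice, which carry a knocked-in repeat of 20 CAG. The labels name no treatment for either group and tie no libraries to one animal, so that p-values measure the spread between these samples. As a reference, values of 3 other groups are given: WT at 2 months, and heterozygous Q20 at 6 and at 10 months, each with 8 libraries (4 of each sex).

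The cortex holds excitatory projection neurons arranged in layers, inhibitory interneurons, astrocytes, oligodendrocytes and their precursors, microglia and blood vessels, and it is wrapped by the meninges, a fibroblast-rich sheath. It borders on the striatum, the basal forebrain with its acetylcholine-producing neurons, the olfactory bulb and the choroid plexus, the epithelium that secretes cerebrospinal fluid, and each of these has transcripts that the cortex makes little of. Between young adulthood and middle age, myelination of the mouse cortex is known to continue while the division of precursor cells slows. In a piece of whole tissue, fewer cells of a type and less RNA per cell cannot be told apart, and this holds for every level given here.

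Estimated counts summed to between 29616475 and 44237351 per library at 6 months and between 31430445 and 42468648 at 10 months. Levels are CPM, counts relative to the scaled library total with the 40 libraries of the 5 groups scaled together, and are given as the lowest, the median and the highest of 8 libraries. Differences are log2 differences, 10 minus 6 months, with their standard error from a fit that holds sex as a term. A gene was called at an adjusted p under 0.05 (edgeR's quasi-likelihood test, two-sided, Benjamini-Hochberg adjustment over every gene tested). All adjusted p-values below are of that kind. The X-inactivation RNA Xist lay at 1155 CPM or above in the 8 libraries labelled female and at 2.52 CPM or below in the 8 labelled male. Markers of cortical excitatory neurons were present in all 16 libraries, with Slc17a7 at 857 CPM or above and Tbr1 at 92.9 CPM or above. Htt itself (ENSMUSG00000029104, chromosome 5 from 34761740 to 34912534, coordinates of GRCm38 from GENCODE M21) lay between 194 and 206 CPM at 6 months (median 198) and between 185 and 205 CPM at 10 months (median 196), and the groups overlapped (log2 difference -0.03 ± 0.026, adjusted p = 0.48). The library numbers inside the library names ran from 300251 to 300258 at 6 months and from 300147 to 300194 at 10 months, so that age and whatever these numbers stand for cannot be told apart. A token of the names was L4, L5 or L32 at 6 months and L1, L2, L7 or L8 at 10 months. Its meaning is not stated, and it cannot be told apart from age either. A code in the WT library names is the same for all 4 libraries of one age and sex and differs between the ages, and the Q20 libraries of 10 months carry the codes of the WT libraries of that age and sex. What the code stands for is not stated, and it cannot be told apart from age, so that p-values take as independent 4 libraries of each sex and age that share a code.

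The first question is which transcripts of the WT cortex stood at another level at 10 than at 6 months. Of 16536 genes tested, 1199 were higher (7.25%) and 1406 lower (8.5%) at 10 months, 15.8% in all. These shares are the background for the counts of every list in WT below, except in fits with a covariate, whose own share is given beside the count. The differences were small: the median size was 0.14 among the genes called higher and 0.28 among those called lower, and 5 genes called higher and 97 called lower differed by more than 1 on the log2 scale. The 8 and 8 libraries did not overlap for 191 genes that stood higher (1.16%) and 157 that stood lower (0.949%), 2.1% in all.

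Several of the transcripts that rose with the smallest p are known from neurons. Serpini1, which encodes neuroserpin, an inhibitor of tissue plasminogen activator released by neurons (ENSMUSG00000027834, chromosome 3 from 75557547 to 75643495), lay between 262 and 295 CPM at 6 months (median 274) and between 313 and 335 CPM at 10 months (median 330.3). Every library of 10 months stood above the highest of 6 months (log2 difference 0.26 ± 0.026, adjusted p = 2.8e-05). App, which encodes the amyloid precursor protein (ENSMUSG00000022892, chromosome 16 from 84949685 to 85173766), was between 1275 and 1408 CPM at 6 months (median 1346) and between 1476 and 1575 CPM at 10 months (median 1526), also without overlap (log2 difference 0.18 ± 0.023, adjusted p = 8.5e-05). Others among the 12 smallest p were Oxr1 (0.26), Rspo2 (0.40), Edil3 (0.24), Kcnc2 (0.21), Bnip3 (0.22), Spag6 (0.66), Sh3gl2 (0.22), Lmo4 (0.23) and Dpy19l1 (0.19), where the bracket gives the log2 difference. Oxr1 protects cells against oxidation, Rspo2 strengthens Wnt signals, Kcnc2 is the fast potassium channel Kv3.2, Bnip3 takes part in the removal of mitochondria, Sh3gl2 is the endocytic protein endophilin A1 and Lmo4 a transcriptional cofactor of cortical neurons. Of the genes named, Rspo2 and Spag6 had 1 library of 10 months within the range of 6 months, and the other 9 had none.

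Among the transcripts that fell, the smallest p belonged to Adgrg1, an adhesion receptor (GPR56) known in neural and oligodendrocyte precursors (ENSMUSG00000031785, chromosome 8 from 94974751 to 95014217). It lay between 52.9 and 67.8 CPM at 6 months (median 60.8) and between 39.1 and 49.1 CPM at 10 months (median 43), and all 8 libraries of 10 months stood below the lowest of 6 months (log2 difference -0.48 ± 0.036, adjusted p = 3.4e-07). Fads2, the delta-6 desaturase of polyunsaturated fatty acid synthesis (ENSMUSG00000024665, chromosome 19 from 10062765 to 10101746), lay between 78.3 and 86.8 CPM at 6 months (median 81.8) and between 66.3 and 72.9 CPM at 10 months (median 69.8), also without overlap (log2 difference -0.25 ± 0.025, adjusted p = 2.1e-05). The other 10 were Tunar (-0.71), Cacng4 (-0.49), Ptprb (-0.29), Serpinf1 (-0.74), Tbc1d16 (-0.42), Amotl1 (-0.39), Sash1 (-0.28), Myoc (-0.75), Adam12 (-0.85) and Myo10 (-0.30). Cacng4 is an auxiliary subunit of AMPA receptors, Ptprb a phosphatase of endothelium, Serpinf1 the secreted serpin PEDF, Adam12 a metalloprotease and Myo10 a motor of filopodia. For each of these 12 genes the groups did not overlap.

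**Figure D1:**
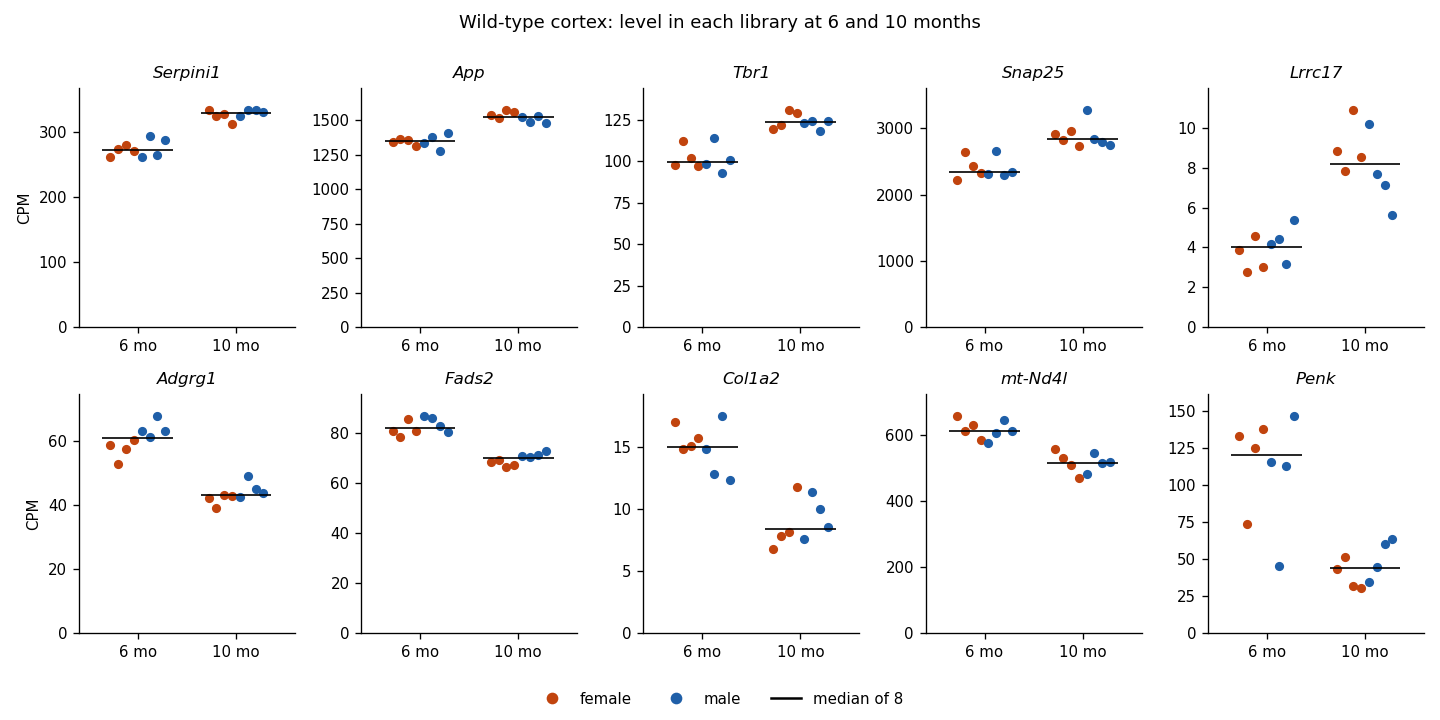
Level in CPM of 10 genes in each of the 8 wild-type libraries of 6 months and the 8 of 10 months. Points are libraries, coloured by sex, and the line is the median of 8. The groups are apart for every gene shown but Penk, a striatal transcript, where 1 male library of 6 months lies among those of 10 months.

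The steepest falls were in transcripts of neighbouring regions. Slc10a4, a vesicular transporter of cholinergic neurons, lay between 0.347 and 3.98 CPM at 6 months (median 3.13) and between 0 and 0.293 CPM at 10 months (median 0.161), and the groups did not overlap (log2 difference -3.92 ± 0.61, adjusted p = 8.8e-04). The female 2 and male 2 libraries of 6 months, at 0.443 and 0.347 CPM, were close to those of 10 months, and the other 6 stood at 1.8 CPM or above. The LIM homeodomain factor Isl1 had a difference of -3.88 ± 0.62, choline acetyltransferase (Chat) of -3.06 ± 0.52, the forebrain homeobox gene Six3 of -2.65 ± 0.52, the calcitonin receptor Calcr of -3.78 ± 0.68 and the kinase Dgkk of -2.62 ± 0.46. At 6 months the medians of these 6 genes ranged from 1.17 to 5.14 CPM, and at 10 months from 0.0306 to 0.654 CPM.

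Of the 16 striatal markers tested, 15 were lower and 0 higher, with a median of -0.751, against 8.5% lower and a median of 0.001 over all genes. Penk, the enkephalin precursor of striatal projection neurons (ENSMUSG00000045573, chromosome 4 from 4133531 to 4138819), lay between 45.5 and 147 CPM at 6 months (median 121) and between 30.7 and 63.8 CPM at 10 months (median 44.3). Of the 8 libraries of 6 months, 7 stood above all 10-month libraries and the male 2 library of 6 months, at 45.5 CPM, did not (log2 difference -1.31 ± 0.24, adjusted p = 0.0031). The dopamine receptors Drd1 (-0.81) and Drd2 (-1.84), the adenosine receptor Adora2a (-1.82), the signalling regulators Rgs9 (-1.51), Ppp1r1b (-0.64) and Adcy5 (-0.53) fell with it, and Scn4b (-0.18) did not pass (adjusted p = 0.15). Summed over the 16 markers, the level was between 579 and 1218 CPM (median 1033) at 6 months and between 576 and 738 CPM (median 607) at 10 months. The male 2 library of 6 months, at 579 CPM, lay inside the range of 10 months, the female 2 library of 6 months was next at 755 CPM, and the other 6 stood at 930.4 CPM or above. WT libraries of 2 months lay between 830.2 and 1135 CPM (median 996), in the range of 6 months.

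Markers of further regions moved the same way, on lists drawn up after these values had been seen. Of the tested markers of cholinergic neurons 6 of 6 were lower, of the olfactory bulb 8 of 9 and of the hypothalamus 6 of 7, with medians of -2.806, -1.348 and -1.827. The deposited data held 9, 12 and 15 genes of these lists, in this order, and the filter on low counts left the rest untested. A gene can pass that filter on its levels at 6 months alone, so that these shares are a description only. Tyrosine hydroxylase, Th (-1.77), and the photoreceptor cadherin Cdhr1 (-1.66) are abundant in the olfactory bulb, and Irs4 (-2.13) and vasopressin, Avp (-1.51), in the hypothalamus. The summed level of the hypothalamic markers was between 17.8 and 92.8 CPM (median 74.6) at 6 months and between 11.7 and 41.2 CPM (median 14.6) at 10 months. The male 3 library of 10 months, at 41.2 CPM, stood above the female 2 and male 2 libraries of 6 months, at 36.2 and 17.8 CPM. Of the markers of the thalamus 1 of 9 was lower and 0 higher, and of the hippocampus 3 of 9 were lower and 0 higher, with medians of -0.112 and 0.088. Over all genes 8.5% were lower, near the share of the thalamus list. Some genes of these lists are also expressed by cortical interneurons (Calb2, Th, Penk and Tac1 among them), and the part of tissue content in any other difference was not tested. The covariates of the fits that follow differ between the ages, so that those fits cannot tell tissue content and age apart.

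**Figure D2:**
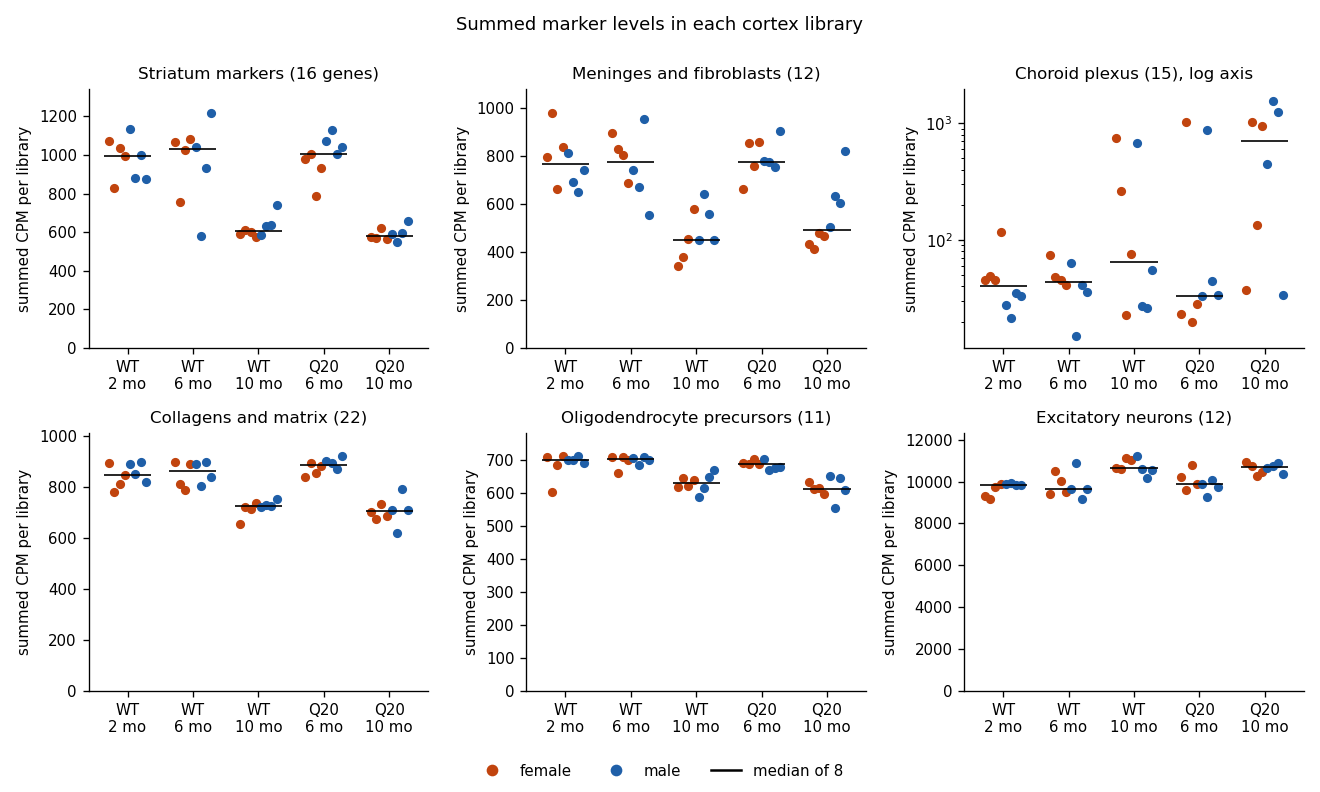
Summed CPM of 6 marker lists in each library of 5 groups, wild type at 2, 6 and 10 months and Q20 at 6 and 10 months. Points are libraries, coloured by sex, lines are medians of 8, and the choroid plexus panel has a log axis. Striatal, meningeal and matrix levels stand lower at 10 months in both genotypes, with 1 wild-type male of 6 months at the striatal level of 10 months.

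The levels of 2 marker lists in each library were carried as covariates, a choice made after the values were seen. With the log2 of the summed striatal level as a covariate, 48 genes were called higher and 92 lower (0.847% of 16536), of which 97 were among the 2605 called without it. With the summed meningeal level as the covariate, 6 were called higher and 16 lower (0.133%), and with both levels 1 was called higher and 1 lower (0.0121%). The covariates themselves differ between the ages, so that each shares part of its variation with age in these fits. A call lost with a covariate therefore cannot be assigned to tissue content or to age. Among the 2605 genes, 2492 kept the sign of the difference with the striatal covariate, 2579 with the meningeal one and 2233 with both, and the median ratio of the difference to that without a covariate was 0.693, 0.856 and 0.475. With the striatal covariate, Adgrg1 (-0.43, adjusted p = 0.0014), Fads2 (-0.25, adjusted p = 0.0096), Serpini1 (0.22, adjusted p = 0.026) and App (0.16, adjusted p = 0.046) still passed. With the meningeal covariate Adgrg1 (adjusted p = 0.0051) and Fads2 (adjusted p = 0.034) passed, and Serpini1 (adjusted p = 0.067) and App (adjusted p = 0.11) did not. With both covariates none of the 4 passed, at an adjusted p of 0.13 for Adgrg1, 0.18 for Fads2, 0.4 for Serpini1 and 0.47 for App. The 2 genes that passed with both covariates were Thbs4 (0.67), a matrix protein that rose, and Ncan (-0.16), which fell, both differences being given without covariates. They were named after their values had been seen.

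**Figure D3:**
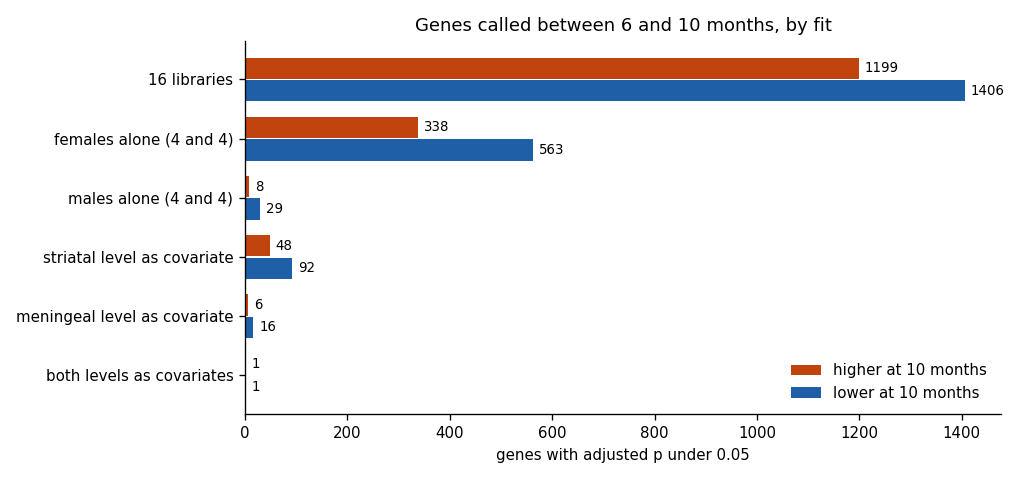
Number of genes with an adjusted p under 0.05 that stood higher or lower at 10 months, for the fit of all 16 libraries, each sex alone, and 3 fits with library levels of striatal or meningeal markers as covariates. The numbers beside the bars are the counts, and they fall from 1199 and 1406 to 1 and 1 with both covariates.

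The sheath and matrix genes formed the second group that fell. Of 12 markers of meninges and fibroblasts, 10 were lower and 0 higher, with a median of -0.639. Fmod, a collagen-binding proteoglycan, lay between 12.7 and 21.9 CPM at 6 months (median 17.8) and between 5.43 and 12.4 CPM at 10 months (median 8.73), without overlap (log2 difference -0.93 ± 0.17, adjusted p = 0.002). The GABA and taurine transporter Slc6a13 (-0.87), the retinoic acid synthase Aldh1a2 (-0.87), the prostaglandin D synthase Ptgds (-0.71), the proteoglycan Bgn (-0.54) and the growth factor Igf2 (-0.63) fell as well. The summed level was between 552 and 955 CPM (median 773.8) at 6 months and between 341 and 639.9 CPM (median 451) at 10 months, and the ranges overlapped.

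Of 22 collagen and matrix genes, 15 were lower and 1 higher, with a median of -0.34. Col1a2, a chain of type I collagen (ENSMUSG00000029661, chromosome 6 from 4504814 to 4541544), lay between 12.3 and 17.5 CPM at 6 months (median 14.9) and between 6.75 and 11.8 CPM at 10 months (median 8.38). All libraries of 10 months stood below those of 6 months (log2 difference -0.73 ± 0.11, adjusted p = 5.8e-04). Tenascin C, Tnc (-0.85), the membrane protease Mmp14 (-0.49), the collagen chain Col3a1 (-1.16) and the matrix binder Sparc (-0.40) fell, while Col5a1 (0.20) rose, a call lost in 14 of the 16 fits that left out 1 library. The summed level did not overlap: it was between 788 and 898 CPM (median 863) at 6 months and between 653.6 and 753 CPM (median 722) at 10 months. With the striatal covariate 1 of the 22 was called lower and 0 higher, where 0.847% of all genes were called. The median over the list was -0.252 with the striatal and -0.168 with the meningeal covariate.

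Vascular transcripts followed. Of 10 mural cell markers 6 were lower and 0 higher, and of 16 endothelial markers 9 were lower and 0 higher, with medians of -0.239 and -0.16. Notch3, a receptor of vascular smooth muscle and pericytes, lay between 20.2 and 23.3 CPM at 6 months (median 22) and between 15.2 and 19 CPM at 10 months (median 18.3) and did not overlap (log2 difference -0.30 ± 0.045, adjusted p = 2.9e-04). The contractile genes Tagln (-0.83), Acta2 (-0.80) and Myh11 (-0.70) and the pericyte receptor Pdgfrb (-0.23) fell. In endothelium the angiopoietin receptor Tek (-0.23), the adhesion molecules Cdh5 (-0.25) and Pecam1 (-0.20), the VEGF receptor Flt1 (-0.17) and the tight-junction protein Cldn5 (-0.30) fell too. The call of Cldn5 was lost without the female 1 library of either age. With the striatal covariate, Pecam1 (-0.29) and Flt1 (-0.30) were the endothelial markers called, both lower, where 0.847% of all genes were called. The endothelial median was -0.254 with the striatal and -0.076 with the meningeal covariate.

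Choroid plexus transcripts stood apart from the rest, since a few libraries held far higher levels than the others. Transthyretin (Ttr, ENSMUSG00000061808, chromosome 18 from 20665280 to 20674321) lay between 6.37 and 46.4 CPM at 6 months (median 24) and between 13.6 and 650.4 CPM at 10 months (median 49.9), and the ranges overlapped (log2 difference 3.01 ± 0.92, adjusted p = 0.042). The summed level of the 15 markers was 744 CPM in the female 1, 681 CPM in the male 1 and 264 CPM in the female 2 library of 10 months, against at most 75.7 CPM in the other 5 and 74.9 CPM at 6 months. Of the 13 markers tested, Ttr and the bicarbonate transporter Slc4a5 (2.69) passed, and Folr1 (2.11), Kl (1.03) and Kcnj13 (0.90) did not. Without the male 1 library of 10 months the difference of Ttr was 1.84 (adjusted p = 0.18), and without the female 1 library 2.44 (adjusted p = 0.11). The calls of Ttr and Slc4a5 were each lost in 11 of the 16 fits that left out 1 library.

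Of 12 excitatory neuron markers, 6 rose and 0 fell, with a median of 0.164, against 7.25% higher among all genes. Tbr1, a transcription factor of deep-layer projection neurons (ENSMUSG00000035033, chromosome 2 from 61802930 to 61814114), lay between 92.9 and 114 CPM at 6 months (median 99.6) and between 118 and 131 CPM at 10 months (median 124), and Snap25, a protein of the vesicle fusion machinery, lay between 2223 and 2659 CPM at 6 months (median 2334) and between 2733 and 3276 CPM at 10 months (median 2832). For neither gene did the groups overlap (log2 difference 0.28 ± 0.039, adjusted p = 2.0e-04 for Tbr1 and log2 difference 0.26 ± 0.043, adjusted p = 5.6e-04 for Snap25). The differentiation factor Neurod6 (0.45), the calcium sensor of vesicle release Syt1 (0.19) and the vesicular glutamate transporter Slc17a7 (0.12) rose, whereas Camk2a (-0.028), Grin1 (0.057) and Rbfox3 (0.077) did not pass. The call of Slc17a7 was lost in 11 of the 16 fits without 1 library. The female 2 and male 2 libraries held the 2 highest levels of 6 months for Tbr1 (112 and 114 CPM), Neurod6 (56.6 and 62.6 CPM) and Snap25 (2635 and 2659 CPM). With the striatal covariate 0 of the 12 passed, where 0.847% of all genes did. The median was 0.091 with the striatal and 0.119 with the meningeal covariate.

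Layer markers were divided. Of 12 upper-layer genes 4 were higher and 2 lower, and of 15 deep-layer genes 3 were higher and 4 lower. Mef2c, a factor of cortical neuron maturation, lay between 490.4 and 619 CPM at 6 months (median 549) and between 639.6 and 717 CPM at 10 months (median 670.3), without overlap (log2 difference 0.28 ± 0.044, adjusted p = 5.0e-04), and the layer 4 factor Rorb (0.25) and the corticospinal factor Fezf2 (0.39) rose. Among the layer genes that fell, Wfs1 (-0.36), Syt6 (-0.74), Bcl11b (-0.23) and Foxp2 (-0.44) are also known from the striatum, and the cause of their falls was not tested. For Syt6 and Foxp2 the lowest levels of 6 months were in the female 2 and male 2 libraries, with Syt6 at 21 and 18.3 CPM and Foxp2 at 12.5 and 9.07 CPM.

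Interneuron markers fell more often than they rose: 9 of 22 were lower and 2 higher, with a median of -0.157. Among those that fell were the tachykinin precursor Tac1 (-1.22), calretinin, Calb2 (-1.35), and the homeobox genes Dlx6 (-0.73) and Dlx2 (-0.46). The GABA-synthesising enzyme Gad2 (-0.48) and the vesicular GABA transporter Slc32a1 (-0.35) fell too. Striatal or olfactory neurons are also known to express these genes, and cortical interneurons express Calb2 and Tac1 among them, so that their source cannot be told apart here. Parvalbumin, Pvalb (0.33), and Vip (0.25), of the same list, rose. Pvalb lost its call in 8 and Slc32a1 in 9 of the 16 fits without 1 library. Vip lay between 30.6 and 43.5 CPM at 6 months (median 35.5) and between 39.7 and 47.2 CPM at 10 months (median 43.1), with overlap (log2 difference 0.25 ± 0.062, adjusted p = 0.011). Somatostatin, Sst (0.021), did not pass (adjusted p = 0.78). With the striatal covariate 0 of the 22 passed, where 0.847% of all genes did. The median was 0.003 with the striatal and -0.157 with the meningeal covariate.

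Among channels and receptors, 9 of 41 potassium channel genes were higher and 2 lower, against 7.25% higher and 8.5% lower among all genes, which also holds as the background of the receptor counts that follow. Besides Kcnc2, the inward rectifiers Kcnj3 (0.23) and Kcnj9 (0.20), the silent subunit Kcnv1 (0.25), the ERG-type channel Kcnh7 (0.22), the M-current subunits Kcnq3 (0.14) and Kcnq5 (0.13), Kcna1 (0.15) and Kcnip4 (0.14) rose, and Kcna4 (-0.24) and Kcnj4 (-0.14) fell. Kcna4 lost its call in 11 of the 16 fits without 1 library, and Kcnj4 in that without the female 3 library of 6 months. Kcnc2 itself lay between 109 and 119.9 CPM at 6 months (median 113) and between 128 and 136 CPM at 10 months (median 131), without overlap. Of 16 genes of GABA receptors and transport, 5 were higher and 3 lower. The GABA-A subunits Gabra3 (0.13) and Gabra4 (0.14) and the GABA-B subunit Gabbr2 (0.15) were among those that rose, and the transporter of astrocytes Slc6a11 (-0.47) and the subunit Gabrg1 (-0.37) among those that fell. Glutamate receptor genes were called in both directions, 2 higher and 5 lower of 22, with Gria4 (0.12) and Grm8 (0.21) higher.

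Of 18 astrocyte markers, 10 fell and 0 rose, with a median of -0.134. The glutamate transporter Slc1a3 lay between 659 and 700.9 CPM at 6 months (median 678) and between 536 and 637 CPM at 10 months (median 602), without overlap (log2 difference -0.19 ± 0.028, adjusted p = 2.9e-04), and the water channel Aqp4 was between 132 and 155 CPM at 6 months (median 134) and between 95.3 and 121 CPM at 10 months (median 115), also without overlap (log2 difference -0.32 ± 0.052, adjusted p = 6.4e-04). The bicarbonate transporter Slc4a4 (-0.23), connexin 43, Gja1 (-0.21), and the intermediate filament Gfap (-0.34) fell, and Aldh1l1 (-0.026), S100b (0.016) and Glul (-0.053) did not pass. Of 14 tested genes of reactive astrocytes 4 were lower and 0 higher, Vim (-0.29), Amigo2 (-0.41) and Cp (-0.35) beside Gfap.

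In the oligodendrocyte lineage, precursor genes fell and some myelin genes rose. Of 11 precursor markers 7 were lower and 0 higher, with a median of -0.225. Pdgfra, the receptor that defines these cells (ENSMUSG00000029231, chromosome 5 from 75152292 to 75198215), lay between 65.7 and 72.4 CPM at 6 months (median 67.9) and between 50.8 and 64.8 CPM at 10 months (median 57.6), and the groups did not overlap (log2 difference -0.24 ± 0.043, adjusted p = 8.5e-04). The proteoglycan Cspg4 (-0.38), the secreted C1ql1 (-0.60), the phosphatase Ptprz1 (-0.23) and the proteoglycan Vcan (-0.24) fell, and Olig2 (-0.083) did not pass. Of 25 myelin genes 5 were higher and 0 lower: Mobp (0.19), Ermn (0.23), Trf (0.16), Hapln2 (0.21) and Il33 (0.16). Mobp lay between 629 and 753 CPM at 6 months (median 660.1) and between 691 and 864 CPM at 10 months (median 756), with overlap (log2 difference 0.19 ± 0.047, adjusted p = 0.01), and Mbp (0.096) and Mog (0.15) did not pass. In the 16 fits without 1 library, Mobp passed in each, while the call was lost in 12 for Ermn, 12 for Hapln2, 10 for Trf and 5 for Il33. Among newly formed oligodendrocyte genes, Itpr2 (-0.23), Gpr17 (-0.30) and Tcf7l2 (-0.47) fell and Bcas1 (0.14) rose. With the striatal covariate 0 of the 11 precursor markers passed, where 0.847% of all genes did. The median of the precursor markers was -0.166 with the striatal and -0.191 with the meningeal covariate. The summed level of the precursor markers in the female 2 and male 2 libraries of 6 months, 659.8 and 685 CPM, was the lowest of that age, and the first of these lay inside the range of 10 months (up to 670 CPM).

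Among genes of dividing cells, topoisomerase IIa, Top2a, lay between 0.79 and 1.74 CPM at 6 months (median 0.946) and between 0.439 and 0.672 CPM at 10 months (median 0.573), without overlap (log2 difference -0.90 ± 0.17, adjusted p = 0.0014), and the proliferation antigen Mki67 (-0.70) fell too. Of the 15 genes of cell division tested these 2 were lower and Pcna (0.12) was higher, against 8.5% lower and 7.25% higher among all genes. Of 11 genes of immature neurons 7 were lower, among them Sox11 (-0.50), Sox4 (-0.36), Igfbpl1 (-2.18), Cd24a (-0.61) and Tubb2b (-0.16), and Neurod1 (0.25) and Stmn1 (0.18) were higher. Doublecortin, Dcx (-0.12), did not pass (adjusted p = 0.52). Igfbpl1 stood at 0.177 CPM in the female 2 and 0.278 CPM in the male 2 library of 6 months, against a median of 1.24 CPM at that age.

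Perineuronal nets are the chondroitin sulphate coats of interneurons. Of 12 net genes 6 were lower and 1 higher. The lecticans Ncan (-0.16) and Bcan (-0.19) and tenascin R, Tnr (-0.21), fell and the link protein Hapln4 (0.27) rose. Tnr lost its call without the female 4 library of 6 months. Ncan lay between 197 and 223 CPM at 6 months (median 201) and between 177 and 194 CPM at 10 months (median 182), without overlap (log2 difference -0.16 ± 0.028, adjusted p = 7.1e-04), and it was highest in the male 2 and female 2 libraries of 6 months, at 223 and 214 CPM. Aggrecan, Acan (-0.068), did not pass.

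In none of the 4 immune lists were more genes higher than lower, where 7.25% were higher and 8.5% lower among all genes. Of 20 microglial markers 6 were lower and 0 higher, Csf1r (-0.17), C1qc (-0.16), C1qa (-0.15) and Olfml3 (-0.21) among them, and P2ry12 (0.025) and Tmem119 (-0.02) did not pass. Of 13 tested genes of activated microglia 6 were lower and 1 higher, including Axl (-0.16), Apoe (-0.18) and Cd63 (-0.15), all lower. Of 23 interferon-stimulated genes Ifitm3 (-0.44) was lower and 0 were higher, a share lower that is under that of all genes. The complement and antigen presentation list had 5 of 16 lower and 0 higher, and 4 of the 5 belong to MHC class II, which presents peptides to CD4 T cells: Cd74 (-0.58), H2-Aa (-0.71), H2-Ab1 (-0.59) and H2-Eb1 (-0.56). H2-Aa lay between 1.32 and 3.54 CPM at 6 months (median 2.03) and between 0.865 and 1.71 CPM at 10 months (median 1.18), with overlap (log2 difference -0.71 ± 0.17, adjusted p = 0.0084). The class I genes H2-D1 (-0.023), H2-K1 (-0.15) and B2m (0.026) and the class II activator Ciita (0.032) did not pass. The median over the 16 genes was -0.036 with the meningeal and -0.178 with the striatal covariate, against -0.158 with neither.

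Because these class II genes stood lower together, the promoters of 2 of the 4 are shown. The promoter sequences used held no entry for H2-Ab1, and Cd74 was left out by choice, so that the 2 do not stand for all 4. Class II promoters are known for a Y box, a CCAAT element read in reverse that the factor NF-Y binds. From RefSeq (GRCm38.p6), the 150 bases before the start of H2-Aa and of H2-Eb1 are printed 5′ to 3′ with the motif CTGATTGG in capitals.
H2-Aa: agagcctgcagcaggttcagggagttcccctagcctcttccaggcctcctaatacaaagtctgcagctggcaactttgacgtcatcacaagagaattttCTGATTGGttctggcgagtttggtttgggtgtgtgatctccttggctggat
H2-Eb1: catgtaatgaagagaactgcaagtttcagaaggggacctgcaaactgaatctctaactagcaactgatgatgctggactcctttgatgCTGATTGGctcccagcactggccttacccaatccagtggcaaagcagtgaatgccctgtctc
The H2-Aa window is chr17:34287824-34287973 on the minus strand and that of H2-Eb1 chr17:34305717-34305866 on the plus strand. The motif begins 51 bases before the start of H2-Aa and 62 before that of H2-Eb1. Searched on both strands, CTGATTGG is found in 3.16% of the 32851 promoter windows of that length, and its presence is a description of the sequence only.

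Of the mitochondrially encoded transcripts 9 of 13 fell and 0 rose, with a median of -0.109. mt-Nd4l, a subunit of complex I (mitochondrial genome from 9877 to 10173), lay between 575 and 659 CPM at 6 months (median 612) and between 469 and 558 CPM at 10 months (median 517), without overlap (log2 difference -0.26 ± 0.036, adjusted p = 2.0e-04). mt-Cytb and mt-Nd4 differed by -0.16 and -0.15, again without overlap. Nuclear genes of the respiratory chain moved the other way, 7 of 38 higher and 0 lower, with Ndufa4 (0.11), Ndufv2 (0.11), Cox7b (0.11) and Uqcrc2 (0.092). Ndufa4 lay between 155 and 163 CPM at 6 months (median 158) and between 164 and 181 CPM at 10 months (median 169.9), without overlap.

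The counts of the following lists stand against 7.25% higher among all genes. Of 17 circadian clock genes Hlf (0.23), Nr1d2 (0.15) and Bhlhe41 (0.23) were higher and 0 lower. Of 22 genes of the unfolded protein and integrated stress response Asns (0.16), Dnajb9 (0.15) and Chac1 (0.24) were higher, and of 14 p53 targets the cyclin Ccng1 (0.24) and the sestrin Sesn1 (0.11). Ccng1 lay between 74 and 89.7 CPM at 6 months (median 81.3) and between 92.4 and 103 CPM at 10 months (median 95.7), without overlap (log2 difference 0.24 ± 0.036, adjusted p = 2.9e-04). Chac1 lost its call in 11 and Sesn1 in 4 of the 16 fits without 1 library. Of 25 genes of cholesterol synthesis Fdft1 (0.18), Hmgcs1 (0.13) and Stard4 (0.12) were higher, where Hmgcs1 lost its call in 9 and Stard4 in 11 of those fits, and of 21 clustered beta protocadherins Pcdhb3 (0.36), Pcdhb5 (0.27) and Pcdhb9 (0.21). edgeR called none of 26 immediate early genes and none of 16 heat shock genes, where 4 and 4, in this order, had an unadjusted p under 0.05 and DESeq2 called 4 and 0. In this bulk tissue the immediate early genes spread widely within an age, with a summed level between 815 and 1786 CPM (median 1686) at 6 months and between 881 and 1909 CPM (median 1494) at 10 months.

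The remaining lists stand against 7.25% higher and 8.5% lower among all genes. Of these lists, the glucocorticoid-responsive genes had 1 of 15 higher, the receptor gene Nr3c1 (0.14), and 0 lower. The liver transcripts had 1 higher, Ttr, and 1 lower, Apoa2 (-1.36), of 4 tested, and the RNAs without a polyA tail had 1 lower, Hist1h4i (-0.78), and 0 higher of 10, a call lost in 6 of the 16 fits without 1 library. edgeR called none of 5 blood genes, with 0 at an unadjusted p under 0.05 and 0 called by DESeq2, and none of 6 sex-linked genes, with 0 and 0.

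**Figure D4:**
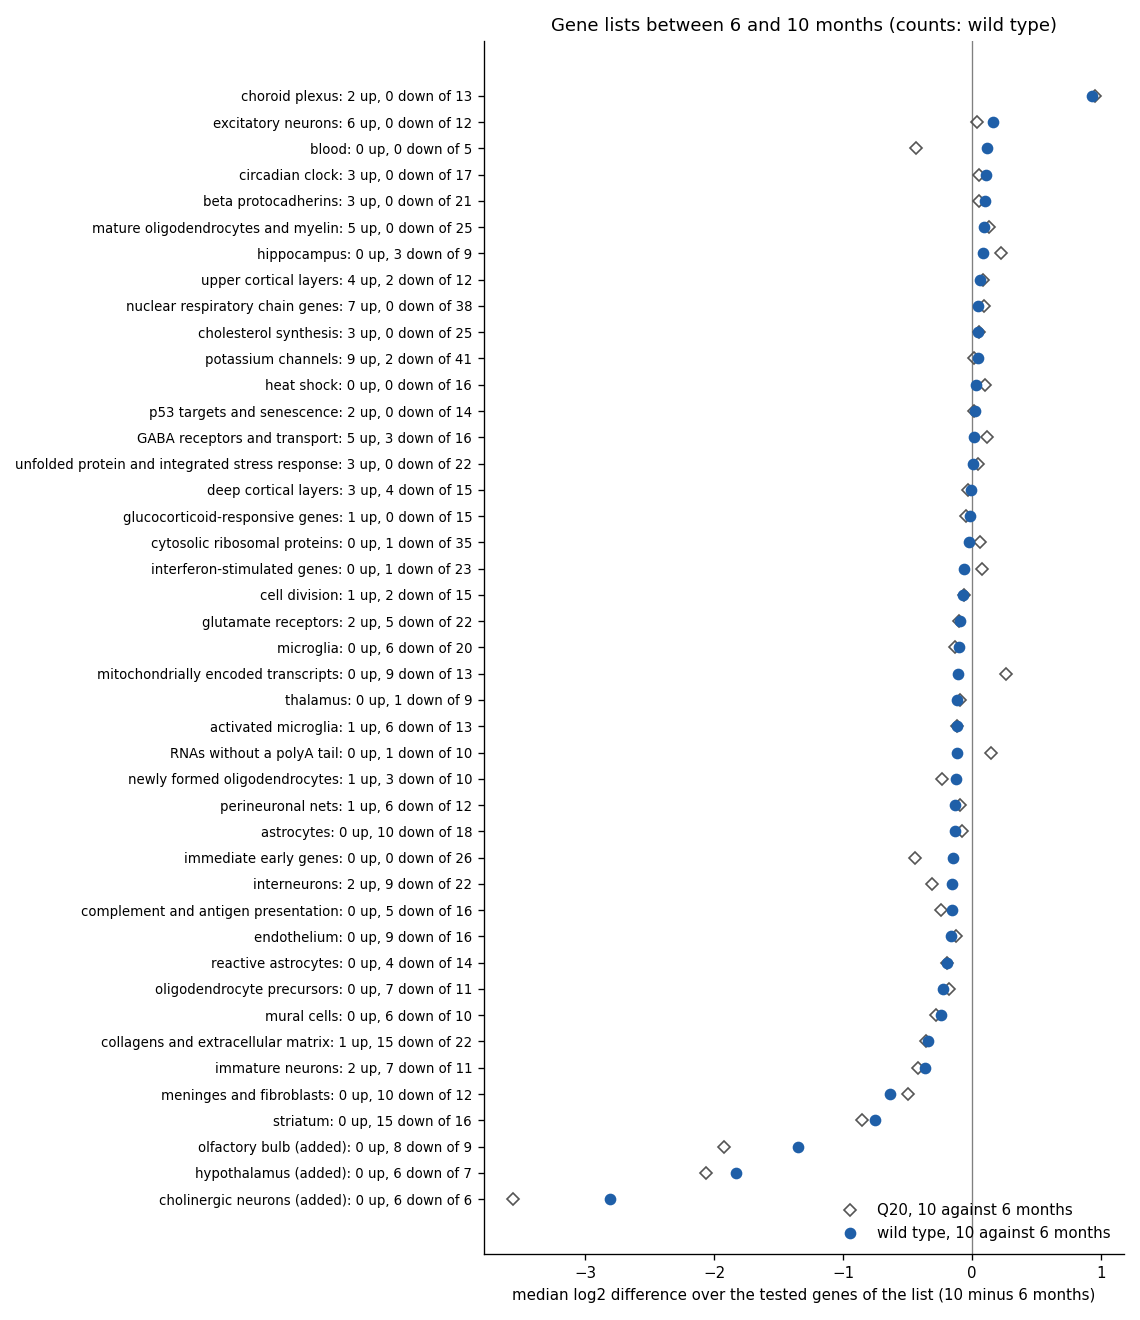
Median log2 difference, 10 minus 6 months, over the tested genes of each list with 5 or more such genes but the sex-linked one, in wild type (filled) and Q20 (open). Labels give the number of genes called higher and lower in wild type, and lists marked added were drawn up after the values were seen. Striatal, meningeal and matrix lists lie to the left in both genotypes, and the mitochondrially encoded transcripts lie on opposite sides of 0.

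The largest rises outside the choroid plexus, among genes with a mean of at least 1 CPM, were in genes of low level. Lrrc17, a secreted leucine-rich repeat protein (ENSMUSG00000039883, chromosome 5 from 21543559 to 21575904), lay between 2.75 and 5.39 CPM at 6 months (median 4.02) and between 5.65 and 10.9 CPM at 10 months (median 8.19), without overlap (log2 difference 1.09 ± 0.15, adjusted p = 2.9e-04). Fermt1, which encodes kindlin-1, differed by 0.89, a call lost without the male 2 library of 10 months, and the pseudogenes Nlrp5-ps and Rpl19-ps11, which share sequence with their parent genes and are uncertain for that reason, by 0.70 and 0.69. In Q20, Lrrc17 differed by 4.27 (adjusted p = 1.8e-13) between the same ages, and the difference between the genotypes passed (log2 -3.16, adjusted p = 4.8e-11). The Q20 libraries of 6 months carry names of another form, which cannot be told apart from genotype in that difference.

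Whether the age difference depends on sex was tested as an interaction. edgeR called 0 of 16536 genes (0%), 541 had an unadjusted p under 0.05, and DESeq2 called 1. Fitted alone, the 4 and 4 female libraries gave 338 genes higher and 563 lower (5.44%) and the male ones 8 higher and 29 lower (0.222%). A gene called in one sex alone is not shown to differ between the sexes. Adgrg1 differed by -0.46 in females and -0.50 in males, Fads2 by -0.26 and -0.24, Tbr1 by 0.29 and 0.27, and Penk by -1.58 and -1.05. The striatal list had medians of -0.859 in females and -0.715 in males, and the matrix list -0.326 and -0.298.

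The WT libraries of 2 months are set beside the comparison. Their library numbers ran from 299983 to 300026, so that age and these numbers cannot be told apart here either. The female 2 library of 2 months stood far from the others of its age in summed nuclear respiratory chain genes (7554 CPM, others 5694 to 6010). It did so in cytosolic ribosomal protein genes too (7199 CPM, others 4708 to 5575), and it was kept in the fit. Comparisons with 2 months share the 6- or 10-month libraries with the main comparison, so values are given side by side only. Of 16843 genes tested with 3 ages in one fit, 1995 were called between 10 and 2 months (11.8%) and 30 between 6 and 2 months (0.178%). Adgrg1 had a median of 57.9 CPM at 2 months, 60.8 at 6 and 43 at 10, Fads2 of 79.6, 81.8 and 69.8, and Serpini1 of 265, 274 and 330.3. Top2a had 1.89, 0.946 and 0.573 CPM. Lrrc17 lay between 2.01 and 47 CPM at 2 months (median 2.75), a range that holds all libraries of 6 and 10 months, and did not pass between 10 and 2 months (log2 difference 0.0033, adjusted p = 1).

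The same ages in Q20 mice, which share no library but, at 10 months, the codes in the library names with the WT comparison, gave 4030 genes higher and 3887 lower of 16618 tested (47.6%). Of the 1198 genes called higher in WT and tested in Q20, 946 were called higher there (79%, which is 23.5% of the Q20 genes called higher), 16 lower, and 236 not. Of the 1401 called lower, 1051 were called lower in Q20 (75%, 27% of the Q20 genes called lower), 23 higher, and 327 not. The background in Q20 was 24.3% called higher and 23.4% lower. Adgrg1 differed by -0.66 (adjusted p = 2.7e-08) in Q20, Fads2 by -0.28 (adjusted p = 4.1e-06), Tbr1 by 0.42 (adjusted p = 2.9e-07) and Col1a2 by -0.72 (adjusted p = 3.6e-06). Of the striatal list 16 of 16 were lower in Q20, at a median of -0.849, and of the meningeal list 8 of 12. The summed striatal level was between 785 and 1132 CPM (median 1006) in Q20 at 6 months and between 549 and 655.9 CPM (median 581) at 10 months, so that striatal markers stood lower at 10 months in Q20 as well. The Q20 libraries of 6 months carry names of another form than those of 10 months, and age and that form cannot be told apart in Q20.

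A test of the difference between the genotypes called 2952 of 17046 genes (17.3%), 1637 of them with a higher and 1315 with a lower WT difference. WT and Q20 differed in 4810 genes at 6 months (28.8%) and in 2 at 10 months (0.0122%), Abhd1 and Atraid, both of which lie on chromosome 5 as Htt does. At 6 months the library names of Q20 have another form than those of WT, and at 10 months the forms are the same. Genotype and that form therefore cannot be told apart at 6 months, nor in the test of the difference between the genotypes, which uses those libraries. The mitochondrially encoded transcripts were 0 higher and 9 lower in WT and 12 higher and 0 lower in Q20, and the difference passed for 12 of the 13. Their summed level had a median of 89133 CPM in Q20 at 6 months and 106036 CPM in Q20 at 10 months. In WT the medians were 110452 CPM at 6 months and 104145 CPM at 10 months. mt-Nd4l differed by -0.26 in WT and 0.58 in Q20, and mt-Atp8 by -0.10 and 1.02. The ubiquitin fusion gene Rps27a differed by 0.018 in WT and rose in Q20 (0.74). Of 35 cytosolic ribosomal protein genes, Rps9 (-0.10) was lower and 0 were higher in WT, and the difference between the genotypes passed for 14. Celf3, a splicing regulator, differed by -0.14 in WT and -0.58 in Q20, while Ptov1, Unc45a, Rogdi and Ddx54 lay between -0.018 and 0.013 in WT and fell in Q20 (between -0.42 and -0.31).

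**Figure D5:**
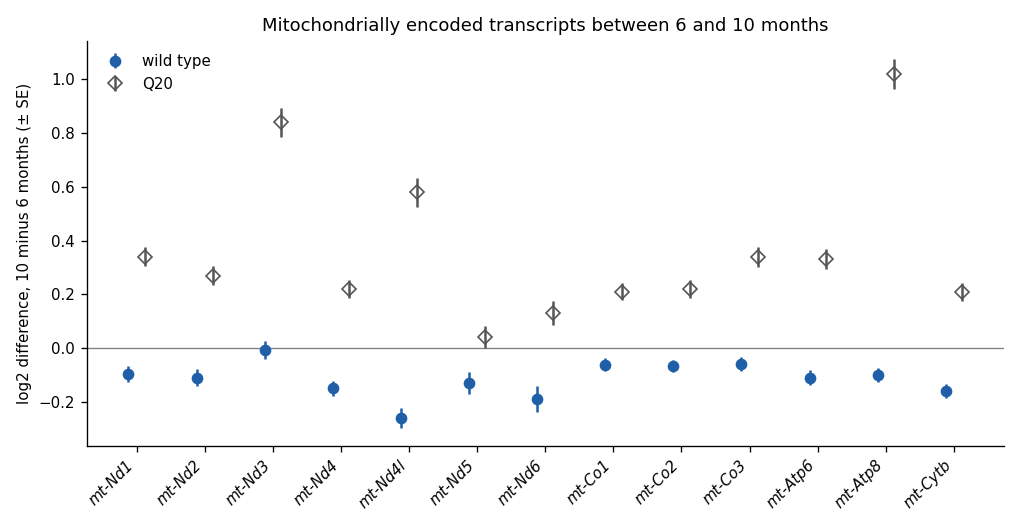
Log2 difference, 10 minus 6 months, with its standard error, of the 13 mitochondrially encoded transcripts in wild type (filled circles) and Q20 (open diamonds), 8 and 8 libraries each. Every wild-type value lies below 0 and 12 of 13 Q20 values were called above it.

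GC content moved with the difference across genes. The median GC content of the annotated transcripts was 45.9% for genes called higher, 52.2% for genes called lower and 49.7% for all, with a value for at least 98.7% of each set. With genes sorted into 10 bins of GC content, the median difference ran from 0.038 in the lowest to -0.038 in the highest in WT and from 0.204 to -0.256 in Q20. The part of GC content in single calls was not tested.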

How the data were processed

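PolyA RNA had been extracted from flash-frozen cortex with a miRNeasy kit and sequenced, per the labels' protocols. The authors deposited estimated counts and FPKM per gene, and the submitters' processing notes name CASAVA 1.8.2. Which aligner, annotation and genome build they used is not given in the sources used here. Estimated counts were rounded to whole numbers. Of the counts, 0.257% lay on IDs with no symbol in GENCODE M21. Samples were grouped by title, and no pair of libraries of the same age, in 56 pairs of WT, agreed within sampling noise. Genes passed edgeR's filter (minimum count 10, total 15), and libraries were scaled by TMM. The quasi-likelihood test of edgeR 4.0.16 in R 4.3.3, with sex as a term and Benjamini-Hochberg adjustment over all genes, gave differences. It was tested on simulated data with 50 changed genes of each size. It found 64% of those changed by 0.25 on the log2 scale and 96% of those changed by 1, and 3.47% of its calls were false. The simulated libraries were independent and no change was under 0.25, so that these rates are not shown to hold for the real libraries, which share codes. Alternatives used DESeq2 1.42.0 and limma 3.58.1 on log2 of the deposited FPKM plus 0.1 or 1, for genes with a mean of 0.1 or more.

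Named genes were the 12 rising and 12 falling with the smallest p, the 6 each way with the largest difference (mean of at least 1 CPM, clone-named models left out), up to 4 of each of 42 lists, 5 each way of each interaction and Htt. Further list members, Thbs4, Abhd1, Atraid and 3 lists were named after their values were seen. Some genes are not reported here. The groups and lists were chosen with earlier results of these data known.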

Additional observations from a re-analysis of the deposited data

Results flagged for a closer look

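Of 446 groups tested (209 genes and 14 marker lists at each age), 20 held a library far from the 7 others of its age. The measure was the ratio of its gap to the whole range of 8, a test that chance passes in about 1 of 20 groups. The 20 cases are not above that rate. In the female 1 library of 10 months the values were Serpinf1 at 2.85 CPM (others 3.96 to 4.89) and Slc32a1 at 47.7 CPM (others 55.2 to 61.9). In the female 3 library of 10 months the values were Amigo2 at 8.45 CPM (others 6.31 to 7.26). In the female 4 library of 10 months the values were Pdgfrb at 29.9 CPM (others 24.8 to 27) and Serpini1 at 313 CPM (others 325 to 335). In the male 1 library of 10 months the values were Slc1a3 at 536 CPM (others 591.4 to 637), Slc4a4 at 161 CPM (others 181 to 191) and Snap25 at 3276 CPM (others 2733 to 2963). In the male 3 library of 10 months the values were Glul at 1483 CPM (others 1637 to 1761) and Irs4 at 1.93 CPM (others 0.48 to 1.04). In the female 1 library of 6 months the values were Trf at 239 CPM (others 185 to 210.2). In the female 2 library of 6 months the values were B2m at 99.3 CPM (others 72.6 to 84.8). In the female 3 library of 6 months the values were H2-Aa at 3.54 CPM (others 1.32 to 2.07). In the female 4 library of 6 months the values were Thbs4 at 3.26 CPM (others 4.18 to 4.98). In the male 1 library of 6 months the values were Grm8 at 10.5 CPM (others 12.3 to 13.1). In the male 3 library of 6 months the values were Aqp4 at 155 CPM (others 132 to 136) and Cdh5 at 19 CPM (others 16.6 to 17.8). The summed level of striatum markers was 738 CPM in the male 4 library of 10 months, with the others between 576 and 639 CPM. The summed level of collagens and extracellular matrix markers was 653.6 CPM in the female 1 library of 10 months, with the others higher, up to 753 CPM. The summed level of hypothalamus markers was 41.2 CPM in the male 3 library of 10 months, with the others between 11.7 and 21.2 CPM. 

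The age difference of WT minus that of Q20 was tested as an interaction by edgeR. Over all genes it passed for 2952 of 17046 (17.3%), which is the background here. It passed for 42 of the 209 genes named here, some of which were chosen by this test. That the 42 stand above the background is therefore not shown, and the difference is given gene by gene as a description only. It was above 0 for Adgrg1 (0.2), Apoe (0.32), Bcan (0.2), Celf3 (0.45), Chac1 (0.41), Ddx54 (0.44), Grin1 (0.38), Hapln2 (0.29), Kcnj4 (0.24), Kcnj9 (0.19), Ptov1 (0.41), Rbfox3 (0.15), Rogdi (0.34), Rpl19-ps11 (1.02), Slc17a7 (0.19), Slc32a1 (0.54), Sox4 (0.55), Sst (0.4) and Unc45a (0.42), values being log2. It was below 0 for Aqp4 (-0.24), Bnip3 (-0.15), Ccng1 (-0.16), Cox7b (-0.25), Dnajb9 (-0.18), Edil3 (-0.13), Ermn (-0.26), Gabra4 (-0.18), Gabrg1 (-0.28), Kcnc2 (-0.11), Kcnh7 (-0.22), Kcnip4 (-0.19), Lrrc17 (-3.16), Nr3c1 (-0.17), Rorb (-0.21), Rps27a (-0.7), Serpini1 (-0.17), Tek (-0.21), Vcan (-0.21), mt-Atp8 (-1.1), mt-Cytb (-0.35), mt-Nd4 (-0.35) and mt-Nd4l (-0.82). For mt-Nd4l the groups of WT stood apart in one direction and the Q20 difference had the opposite sign, as the plot of mitochondrial transcripts shows.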

How the results depend on the processing

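The counts of 1199 genes higher and 1406 lower became 1377 and 1544 with DESeq2, 1178 and 1406 with its size factors, 946 and 1342 with no filter, 1205 and 1408 without the sex term, and 1020 and 1205 or 1020 and 1199 with limma on log2(FPKM + 0.1) or log2(FPKM + 1). With 2-month libraries in the same fit they were 580 and 1006, in females alone 338 and 563, in males alone 8 and 29, the last 2 with fewer samples. With the striatal, the meningeal or both levels as covariates, chosen after seeing the data, they were 48 and 92, 6 and 16, and 1 and 1. Without 1 library they ranged from 868 to 1279 higher and 1154 to 1624 lower, both highest without the female 2 or the male 2 library of 6 months. The difference between the sexes gave 1 gene with no filter and 1 with DESeq2, each with a higher difference in males, against 0. Most same-numbered libraries did not deviate together (correlations from -0.102 to 0.268, 2 of 8 over 0.1). The exceptions were male 2 (0.19) and male 4 (0.268), which correlated at most at 0.187 and 0.193 with another number. With the replicate number as a block the counts were 1078 and 1361. The block gave 0 genes for the difference between the sexes, 3737 and 3610 for Q20 and 1524 and 1181 for the difference between the genotypes.

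Of the 209 genes named, 181 were called, and 161 of these passed in all 16 fits without 1 library. Calls were lost for 13 with the block, 12 with no filter, 14 with log2(FPKM + 1) and 38 with 2-month libraries in the fit, and none changed sign there. They were lost for 76 in females and 170 in males alone. With the covariates, calls were lost for 141 (striatal), 169 (meningeal) and 150 (both), and others changed sign, none of them past the threshold. The log2 values that changed sign were, with the striatal level, Dlx6 0.031, Drd1 0.041, Drd2 0.2, Foxp2 0.11, Kcna4 0.061, Ppp1r1b 0.0012 and Slc32a1 0.037. With the meningeal level they were Acta2 0.11, Cp 0.017 and Ptgds 0.049. With both they were Acta2 0.29, Adora2a 0.39, Cd74 0.019, Cp 0.012, Dgkk 0.12, Dlx6 0.071, Drd2 0.71, Foxp2 0.15, Gabbr2 -0.0091, Gad2 0.062, Gfap 0.012, H2-Aa 0.067, H2-Eb1 0.17, Hmgcs1 -0.071, Igfbpl1 0.16, Irs4 0.83, Isl1 0.21, Kcnh7 -0.036, Kcnv1 -0.0036, Myh11 0.042, Ptgds 0.038, Six3 0.073, Slc17a7 -0.073, Slc32a1 0.15, Slc4a5 -0.21, Tagln 0.16, Th 0.034, Ttr -0.17 and Vip -0.028. Drd1, Drd2, Ppp1r1b, Adora2a, Isl1 and Six3 are members of the striatal sum and Ptgds of the meningeal sum. A smaller or reversed difference in a member is built into a fit that holds its own sum, and members are also among the lost calls. For the other genes the cause was not tested. At depths of 29616475 to 44237351 counts, genes under about 1 CPM rest on few reads, and a change in them that did not pass is not shown to be absent.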
